A study of Rattus norvegicus with 4 samples.

Results

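The genes described are the integrins, laminins and nidogens of rat soleus muscle. They were taken by symbol: every gene whose symbol starts with Itga, Itgb, Lama, Lamb or Lamc followed by a number or by the letter d, e, l, m, v or x, plus Nid1 and Nid2, with the integrin-binding genes Itgb1bp and Itgb3bp left out. Of 26633 genes and transcripts on the array, 15637 carried a symbol, and 24 genes that met the rule are described. A further 14 symbols that the rule gives in the RefSeq gene table, among them Lama2, Lama4, Lamb1, Nid1 and Itgav, were not matched to a probe by accession and were not analysed here. The 24 genes comprised 6 laminin chains, 1 nidogen and 17 integrin chains.

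Gene expression was measured in male rat soleus, a calf muscle of mostly slow fibres that works in posture, on Agilent one-colour arrays, 1 array per group. Regenerated overloaded muscle was soleus that had regenerated and was then overloaded, from rats aged 18 weeks. Overloaded muscle, which the labels call hypertrophied, also came from rats aged 18 weeks and carried no injury label. Regenerated muscle came from rats aged 16 weeks, 8 weeks after an injection that the labels abbreviate as CTX (called injury below), and normal muscle from rats of the same 16 weeks. In every group the RNA of 6 muscles had been pooled in equal amounts, and no strain, no method of overload and no time since injection for the overloaded group are given. There were therefore no replicates, no difference has a test between groups, and the errors given are technical, from repeated spots of a probe on 1 array. All groups lay on 1 slide, with both overloaded groups in 1 row and the other groups in another, so overload, age and slide row cannot be told apart.

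Laminins are trimers of an alpha, a beta and a gamma chain, and they form the sheet of the basement membrane that wraps each muscle fibre, each capillary and each Schwann cell. Nidogens link that sheet to the network of type IV collagen. Integrins are membrane receptors made of 1 alpha and 1 beta chain, through which cells hold on to laminin, collagen or fibronectin, and, in leukocytes, to other cells. In muscle fibres the pair of Itga7 and Itgb1 is the main laminin-binding integrin, beside the dystroglycan complex.

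Promoter windows of 4 of these genes are printed because their signals made up the patterns described below: Itga5, Itga8 and Itgb7 were at least 1.5-fold higher in regenerated than in normal muscle, and Itgb6 was lower in all 4 comparisons. Each window runs from 250 bases before to 50 bases after the RefSeq start in assembly GRCr8 and is written 5′ to 3′ on the gene's strand. Capitals mark matches, on either strand, to GAGGAA (the core of ETS and PU.1 sites), GGGCGG (the Sp1 and KLF box), CAGCTG (a MyoD-type E-box), TGANTCA (AP-1) or ACATTCC (TEAD). In the windows shown no match overlapped another.
Itga5, chr7:136381256-136381555, minus strand: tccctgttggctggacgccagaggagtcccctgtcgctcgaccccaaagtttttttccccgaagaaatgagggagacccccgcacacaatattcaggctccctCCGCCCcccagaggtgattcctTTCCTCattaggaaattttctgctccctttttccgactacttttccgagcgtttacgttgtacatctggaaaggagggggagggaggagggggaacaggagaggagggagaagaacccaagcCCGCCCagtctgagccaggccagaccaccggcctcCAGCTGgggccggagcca
Itga8, chr17:80410584-80410883, minus strand: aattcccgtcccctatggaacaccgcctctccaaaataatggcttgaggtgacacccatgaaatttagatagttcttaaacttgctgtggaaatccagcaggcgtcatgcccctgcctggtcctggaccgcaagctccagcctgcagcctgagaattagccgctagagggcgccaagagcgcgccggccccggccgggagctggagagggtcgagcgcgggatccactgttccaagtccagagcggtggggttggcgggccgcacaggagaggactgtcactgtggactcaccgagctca
Itgb7, chr7:135239022-135239321, minus strand: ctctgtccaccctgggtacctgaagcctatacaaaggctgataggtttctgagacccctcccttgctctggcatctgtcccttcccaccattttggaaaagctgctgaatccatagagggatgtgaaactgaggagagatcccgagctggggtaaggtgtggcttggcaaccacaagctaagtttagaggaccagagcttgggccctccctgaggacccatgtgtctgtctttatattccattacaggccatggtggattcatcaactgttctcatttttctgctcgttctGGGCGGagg
Itgb6, chr3:65530284-65530583, minus strand: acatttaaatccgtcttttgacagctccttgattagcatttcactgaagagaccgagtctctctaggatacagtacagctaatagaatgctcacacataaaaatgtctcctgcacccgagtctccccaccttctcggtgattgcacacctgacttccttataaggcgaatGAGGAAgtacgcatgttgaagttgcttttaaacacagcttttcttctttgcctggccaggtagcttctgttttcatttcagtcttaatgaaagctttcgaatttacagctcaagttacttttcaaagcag

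RefSeq windows were held for 15 of the 24 genes. GAGGAA occurred in 7 of the 15 and in 27.6% of all 33469 promoter windows of the same length, and GGGCGG in 7 of the 15 and in 33.1% of all. CAGCTG occurred in 2 of the 15, Itga4 and Itga5, and in 15.1% of all windows. TGANTCA and ACATTCC occurred in none of the 15, against 7.33% and 4.03% of all. The Itga8 window held none of these motifs, and the Itgb6 window held 1 GAGGAA match starting 80 bases before the start. The matches describe the letters of these windows and nothing else.

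Signal is given as a percentage of the 75th percentile of the same array, so a value of 100 stands for the brightness below which 75% of the spots lay. A probe counted as above background on an array where more than 50% of its spots, which on probes printed 2 times means both, were called well above background by the scanner software. Of the 24 genes, 19 were above background on all 4 arrays. Itgal, Itgb3, Lama1 and Lamc3 were above it on none, and Itgad on the overloaded array only. The array of normal muscle was the least sensitive: 60.4% of its probe spots were well above background, against 68.1% on the regenerated overloaded, 70.6% on the overloaded and 68.9% on the regenerated array. The lowest signal called above background was 2.37, 1.96 and 2.20 on the regenerated overloaded, overloaded and regenerated arrays and 4.34 on the normal array. All 10 soleus markers, such as the slow myosin gene Myh7, were above background on every array. Their summed signal was 260335 in regenerated overloaded, 280212 in overloaded and 288568 in regenerated muscle, against 350132 in normal muscle, and all 10 were lower in both regenerated and overloaded muscle than in normal muscle, with medians of -0.27 and -0.32 on the log2 scale.

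**Figure D1:**
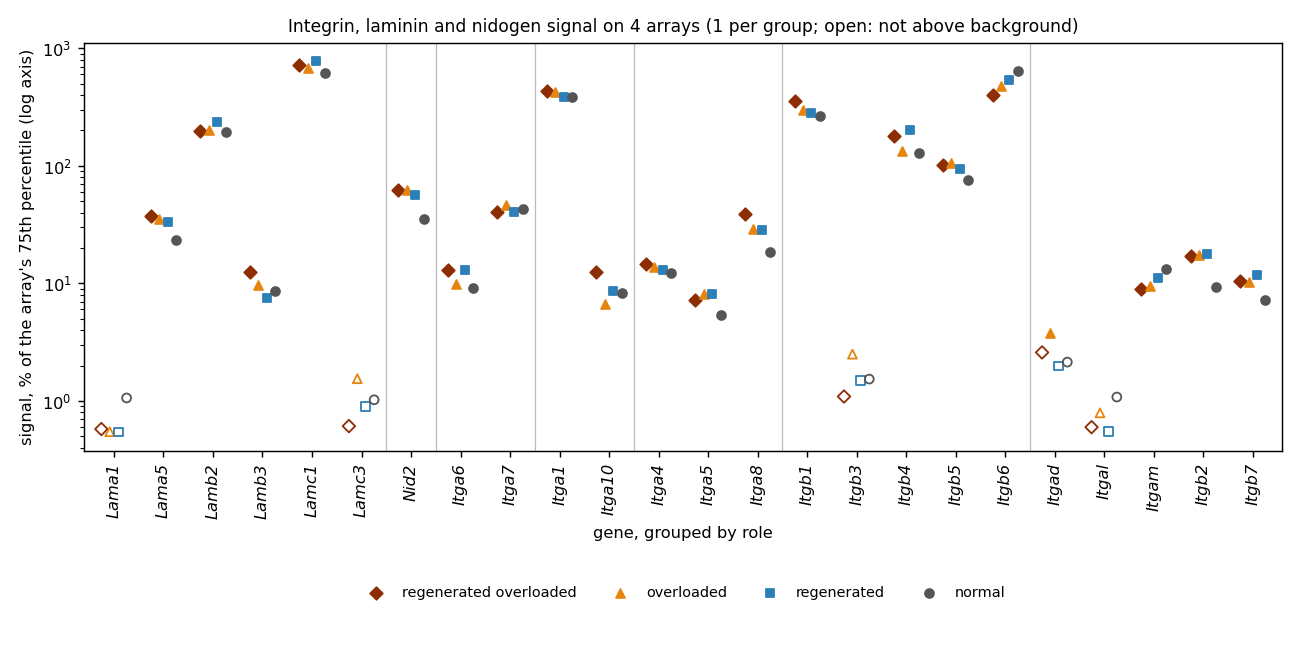
Signal of the 24 genes on the 4 arrays, in percent of each array's 75th percentile on a log axis, with genes in order of their role (laminins, nidogen, laminin-binding, collagen-binding and fibronectin-binding alpha chains, beta chains, leukocyte chains, divided by grey lines). Each symbol is 1 array and open symbols are not above background; the normal array is the lowest for Itgb2, Nid2, Itga8 and Itgb5, and the highest for Itgb6.

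Regenerated muscle was set against normal muscle to show what differed 8 weeks after the injury. Regenerated muscle had more signal of Itgb2, the beta chain shared by the leukocyte integrins (1.94-fold), of Itgb7, another leukocyte beta chain (1.63-fold), and of Nid2 (1.59-fold). It also had more of Itgb4, the beta chain that pairs with Itga6 in a laminin receptor (1.56-fold), and of the alpha chains Itga8 (1.53-fold) and Itga5 (1.51-fold), both of which bind fibronectin with Itgb1. A gene was counted as measured where either array compared had it above background. None of the 19 genes measured differed 2-fold or more, where 1.92% of 16911 genes and transcripts did, 1.25% being higher. At 1.5-fold, 6 of the 19 were higher and none was lower, against 5.77% of all genes higher and 8.0% past that limit in either direction. With normexp, a background correction that pulls dim spots towards each other, none of the 19 passed 1.5-fold, 3 did with cyclic loess and 8 did with the authors' deposited table. Itgb4 fell just short of that limit with normexp, at 1.499-fold. The median log2 difference of the 19 genes was 0.31, and that of all genes measured was -0.077.

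Overloaded muscle was set against normal muscle to compare load without earlier injury, in arrays that also differ in age and slide row. Itgb2 was again higher (1.88-fold), as were Nid2 (1.75-fold), Itga8 (1.57-fold) and Itga5 (1.52-fold). None of 20 measured genes passed 2-fold, where 3.15% of 17308 genes did, 2.42% being higher. At 1.5-fold, 4 were higher and none lower, against 7.93% of all genes higher and 11.0% in either direction. With normexp 1 passed it, Nid2, and 7 did with the authors' deposited table. The median was 0.16, against -0.077 for all genes. Both comparisons use the same normal array, so their likeness is in part that array's own.

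Overload after injury was read from regenerated overloaded against regenerated muscle. Lamb3, a beta chain of the laminin best known from epithelial basement membranes, was 1.66-fold higher, a call lost with normexp. It was the 1 gene of 19 measured past 1.5-fold, and none passed 2-fold. Of 17208 genes, 1.99% passed 2-fold in either direction (1.55% higher) and 7.09% passed 1.5-fold (4.62% higher). The median was 0.027, against -0.028 for all genes.

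Regenerated overloaded muscle was set against overloaded muscle to compare muscle with and without earlier injury under load, on 1 array each. Itga10, the alpha chain of a collagen receptor known from cartilage, was 1.87-fold higher, a call lost with the mean over its probes, at 0.27 on the log2 scale, and with normexp. No other gene among the 20 measured passed 1.5-fold, and none passed 2-fold. Of 17493 genes, 1.69% passed 2-fold in either direction (1.01% higher) and 5.34% passed 1.5-fold (3.02% higher). The median was 0.027, against -0.019 for all genes.

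**Figure D2:**
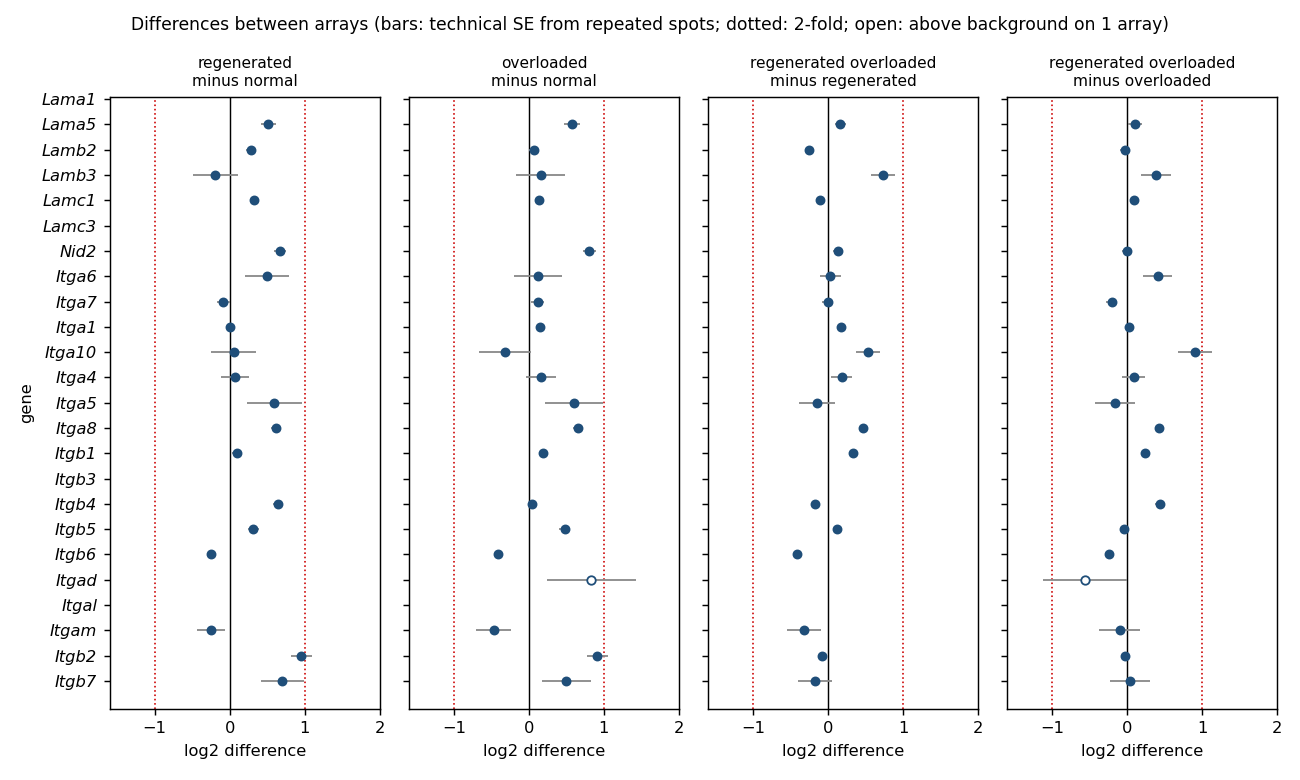
Log2 difference of every measured gene in the 4 comparisons, with bars for the technical SE from repeated spots and dotted lines at 2-fold. Open points are genes above background on 1 of the 2 arrays; no point lies past 2-fold, and Itgb2 lies nearest to it in the left-hand panel.

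Among the laminins, Lamb3 had 12.6 in regenerated overloaded muscle, 9.65 in overloaded, 7.58 in regenerated and 8.65 in normal muscle. Its log2 difference between regenerated overloaded and regenerated muscle was 0.73 (technical SE 0.16), and 0.34 with normexp. Against normal muscle both overloaded and regenerated muscle differed by less than the technical SE, at 0.16 (0.32) and -0.19 (0.30). Of 4 epithelial markers, 1 was above background in regenerated overloaded, 2 in overloaded, 2 in regenerated and none in normal muscle, with summed signals of 8.02, 8.37, 9.98 and 10.6, and the defining markers Cdh1 and Epcam were above it on no array.

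Lamc1, Lamb2 and Lama5, chains of muscle and its vessels, stayed under 1.5-fold in all 4 comparisons. Lamc1, the gamma chain of most muscle laminins, read 724 in regenerated overloaded, 680 in overloaded, 777 in regenerated and 620 in normal muscle. With 9 or 10 spots per array its differences of 0.32 (technical SE 0.025) for regenerated and 0.13 (0.024) for overloaded over normal muscle were larger than the spot error, and a second probe gave 0.18 and -0.17, so the direction under overload differs between the probes. Lamb2, the beta chain enriched at the neuromuscular synapse, had 199, 203, 237 and 195 in regenerated overloaded, overloaded, regenerated and normal muscle. The regenerated array was the highest, by 0.28 (0.059) over normal muscle on the log2 scale, and regenerated overloaded muscle was 0.25 below it.

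Lama5, an alpha chain of vessel and synaptic basement membranes, had 37.6 in regenerated overloaded, 35.0 in overloaded and 33.6 in regenerated muscle, against 23.5 in normal muscle. The log2 differences from normal were 0.52 (technical SE 0.10) in regenerated and 0.57 (0.11) in overloaded muscle, both just short of 1.5-fold. The normal array stood below the others, which lay close together. Lama1 and Lamc3 were not above background on any array.

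Nid2 followed the same order as Lama5. It read 62.0 in regenerated overloaded, 61.9 in overloaded and 56.5 in regenerated muscle, and 35.4 in normal muscle. The difference from normal was 0.67 (technical SE 0.082) in regenerated and 0.81 (0.083) in overloaded muscle, and the difference between regenerated overloaded and overloaded muscle was 0.0018 (0.068). A second probe, with 1 spot and not above background on the normal array, gave 1.55 and 1.32 for the comparisons with normal muscle. Nid2 in overloaded against normal muscle was the 1 difference among these genes that stayed past 1.5-fold with normexp, at 0.65.

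Among the laminin-binding alpha chains, Itga7, the muscle fibre's own, had 40.3 in regenerated overloaded, 46.6 in overloaded, 40.4 in regenerated and 42.9 in normal muscle. Its log2 differences ranged from -0.21 (technical SE 0.077, regenerated overloaded against overloaded) to 0.12 (0.087, overloaded against normal). Itga6, which joins Itgb1 or Itgb4, read 13.1 and 12.9 on the regenerated overloaded and regenerated arrays, against 9.91 and 9.12 on the overloaded and normal arrays. The arrays of injured muscle were thus the higher ones with load and without it, by 0.40 (0.20) and 0.50 (0.29), which is about 2 technical SE at most.

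Itgb4 split the arrays the same way. It had 179 in regenerated overloaded against 133 in overloaded muscle, and 202 in regenerated against 129 in normal muscle. These differences were 0.43 (technical SE 0.057) and 0.64 (0.060) on the log2 scale, many times the spot error, whereas overloaded and normal muscle differed by 0.043 (0.059). Itgb4 is known from epithelial hemidesmosomes and from Schwann cells. Of the 7 Schwann cell markers, 6 were above background in regenerated overloaded, 7 in overloaded, 7 in regenerated and 6 in normal muscle, and their summed signals were 733, 775, 802 and 690. Their mean on the log2 scale was instead highest in normal muscle, at -2.03, -1.78, -1.73 and -1.69 in the same order. Between regenerated and normal muscle 3 of these markers were higher and 4 lower. Between regenerated overloaded and overloaded muscle 2 were higher and 5 lower. Their part in the Itgb4 values was not tested.

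Among the collagen-binding alpha chains, Itga1 had 431 in regenerated overloaded, 425 in overloaded, 383 in regenerated and 382 in normal muscle. Both overloaded arrays were the higher, by 0.17 (technical SE 0.024) over regenerated and 0.15 (0.025) over normal muscle. Itga10 had 12.4 in regenerated overloaded, 6.64 in overloaded, 8.60 in regenerated and 8.29 in normal muscle. Its difference of 0.90 (0.23) between regenerated overloaded and overloaded muscle was not repeated on a second probe, which gave -0.37 and was not above background on the regenerated overloaded array. With the mean over both probes it was 0.27.

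The fibronectin-binding alpha chains were Itga4, Itga5 and Itga8. Itga8, a receptor chain for fibronectin and nephronectin, had 39.2 in regenerated overloaded, 29.2 in overloaded, 28.5 in regenerated and 18.6 in normal muscle. It was the highest on the regenerated overloaded array and the lowest on the normal one, with 9 or 10 spots per array. Over normal muscle the difference was 0.61 (technical SE 0.056) in regenerated and 0.65 (0.059) in overloaded muscle. Regenerated overloaded muscle was a further 0.46 (0.036) above regenerated and 0.42 (0.040) above overloaded muscle. With normexp these 4 differences were 0.34, 0.39, 0.34 and 0.29.

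Itga5, the classical fibronectin receptor chain, had 7.27 in regenerated overloaded, 8.13 in overloaded and 8.07 in regenerated muscle, against 5.35 in normal muscle. Its differences from normal, 0.60 (technical SE 0.39) in overloaded and 0.59 (0.37) in regenerated muscle, were under 2 technical SE, and with normexp they were -0.017 and 0.063, so its direction under overload turned. Itga4, which binds fibronectin and Vcam1, had 14.6 in regenerated overloaded, 13.8 in overloaded, 12.9 in regenerated and 12.3 in normal muscle, and each of its 4 differences was within 1.5 technical SE.

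The beta chain Itgb1, the partner of Itga1, Itga5, Itga7, Itga8 and Itga10, had 354 in regenerated overloaded, 300 in overloaded, 281 in regenerated and 264 in normal muscle. Its differences were 0.33 (technical SE 0.055) for overload after injury and 0.18 (0.057) without it, and a second probe with 10 spots gave 0.23 and 0.15. Itgb5, a partner of Itgav that binds vitronectin, had 102 in regenerated overloaded, 105 in overloaded and 93.7 in regenerated muscle, against 75.3 in normal muscle. It was 0.48 (0.073) above normal in overloaded and 0.31 (0.075) in regenerated muscle, and its second probe gave 0.40 and 0.42. Itgb3, the other vitronectin-binding beta chain, was not above background on any array.

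Itgb6, the beta chain that with Itgav activates latent TGF-beta and is best known from epithelia, went the other way from most. It read 402 in regenerated overloaded, 477 in overloaded, 534 in regenerated and 638 in normal muscle. The log2 difference under overload was -0.41 (technical SE 0.025) after injury and -0.42 (0.025) without it, and the difference with injury was -0.25 (0.025) under load and -0.26 (0.026) without it. Its 9 or 10 spots per array spanned 371 to 445, 450 to 500, 497 to 583 and 577 to 666 on the regenerated overloaded, overloaded, regenerated and normal arrays, so neighbouring arrays overlapped or nearly touched, and the regenerated overloaded and normal arrays lay well apart. Over 11 other ways of processing all 4 differences kept their sign, with the difference between regenerated and normal muscle between -0.26 and -0.11.

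Among the leukocyte chains, Itgb2 had 17.0 in regenerated overloaded, 17.4 in overloaded and 18.0 in regenerated muscle, against 9.27 in normal muscle. The differences from normal were 0.95 (technical SE 0.14) in regenerated and 0.91 (0.14) in overloaded muscle. The spots of the normal array ran between 7.72 and 10.6, and none of the other arrays had a spot under 15.4. With normexp the 2 differences were 0.43 and 0.33, and with the authors' deposited table they were 1.09 and 1.08, past 2-fold.

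Of the alpha chains that pair with Itgb2, 1 was above background on every array. Itgam, the chain of neutrophils and macrophages, had 8.89 in regenerated overloaded, 9.55 in overloaded and 11.2 in regenerated muscle, against 13.2 in normal muscle. Its 2 spots on the normal array read 7.49 and 23.4, on either side of every spot of the other arrays, so neither direction from normal muscle can be given. Regenerated overloaded muscle was 0.33 below regenerated (technical SE 0.23) and 0.10 below overloaded muscle (0.27). Itgad was above background on the overloaded array only, at 3.81, and did not pass 1.5-fold, with 2.59, 1.98 and 2.14 on the regenerated overloaded, regenerated and normal arrays. Itgal, the lymphocyte chain, was above background on none, with signals from 0.55 to 1.08. Itgb7, which pairs with Itga4, had 10.4 in regenerated overloaded, 10.2 in overloaded and 11.8 in regenerated muscle, against 7.23 in normal muscle. Its difference of 0.70 (0.29) in regenerated over normal muscle was 0.23 with normexp.

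Markers of leukocytes, like Itgb2 and Itgb7, had more signal on the other arrays than on the normal one. All 10 macrophage and myeloid markers were above background on every array, and their summed signal was 6983 in regenerated overloaded, 6474 in overloaded and 5738 in regenerated muscle, against 3735 in normal muscle. Between regenerated overloaded and regenerated muscle all 10 were higher, with a median of 0.29 on the log2 scale. Itgb2 (-0.076, technical SE 0.049), Itgb7 (-0.17, 0.23) and Itgam (-0.33, 0.23) were lower in that comparison. Of 6 lymphocyte markers, 4, 3 and 3 were above background on the regenerated overloaded, overloaded and regenerated arrays and 2 on the normal array, with summed signals of 53.5, 54.0, 50.9 and 37.8, and the defining markers Cd3e and Cd79b were above it on none. Fibroblast markers had the lowest sum on the normal array as well, like Nid2, Itga5 and Itga8. Of 6 such markers, 6 were above background on the regenerated overloaded, overloaded and regenerated arrays and 5 on the normal array, where Thy1 was not, and their summed signals were 26565, 19640, 15619 and 8731. Col1a1 stands both in this list and in that of the integrin ligands below. The 8 endothelial markers summed to 1428, 1452, 1380 and 1325 on the same arrays. Against normal muscle, 5 endothelial markers were higher and 3 lower in regenerated muscle, and 7 were higher and 1 lower in overloaded muscle. The 8 smooth muscle and pericyte markers summed to 1204, 1104, 1054 and 933, so both of these sums were also lowest on the normal array. Of these 8, 5 were higher and 3 lower in overloaded than in normal muscle. The part of these cell types in the integrin and laminin values was not tested, and in pooled tissue more cells of a type and more RNA per cell cannot be told apart.

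Counted over the 19 genes above background on every array, the normal array was the lowest of the 4 for 14 (73.7%), whereas it was the lowest for 24.5% of 14417 genes. The regenerated overloaded array was the highest for 9 of the 19 (47.4%, against 22.8% of all genes). Under the other ways of processing, the share with the normal array lowest lay between 57.9% and 78.9% for these genes and between 18.6% and 41.3% for all genes. The exceptions were Itga7, Itga10, Itgb6, Lamb3 and, with its 2 unlike spots on the normal array, Itgam. The soleus markers went the other way, lowest on the regenerated overloaded array in their sum and highest on the normal one, and their part in this count was not tested. This count was chosen after the values were seen and has no test.

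Whether earlier injury altered the response to overload was described by the overload difference after injury minus the overload difference without it, for the 19 genes. The normal array enters this value, so a low reading on that array alone lowers it. That array was the lowest for 14 of the 19 genes (73.7%, against 24.5% of all genes). It was the highest for 2 of the 19 (10.5%, against 54.8% of all genes). The median of these values was -0.19 on the log2 scale, with 12 genes below 0 and 7 above, against a median of 0.074 over 14417 genes. An altered overload response and the reading of the 1 normal array cannot be told apart here. Itgb2 was at the lower end, at -0.99 (technical SE 0.15): its signal was 0.91 higher under overload of uninjured muscle and 0.076 lower under overload of regenerated muscle. Itga5 (-0.75, technical SE 0.45), Itgb7 (-0.67, 0.40), Nid2 (-0.67, 0.11) and Lama5 (-0.41, 0.14) followed. At the upper end were Itga10 at 0.85 (0.38) and Lamb3 at 0.58 (0.36). None of the 19 reached 2-fold, as did 0.375% of all genes above 0 and 0.388% below it. These values depended on the processing: Itgb2 was -1.12 with the authors' deposited table and -0.41 with normexp, and Itga5 was -0.087 and Itgb7 -0.22 with normexp. With the mean over probes Nid2 was -1.02 and Itga10 0.22, whereas with cyclic loess Itga10 was 1.045.

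**Figure D3:**
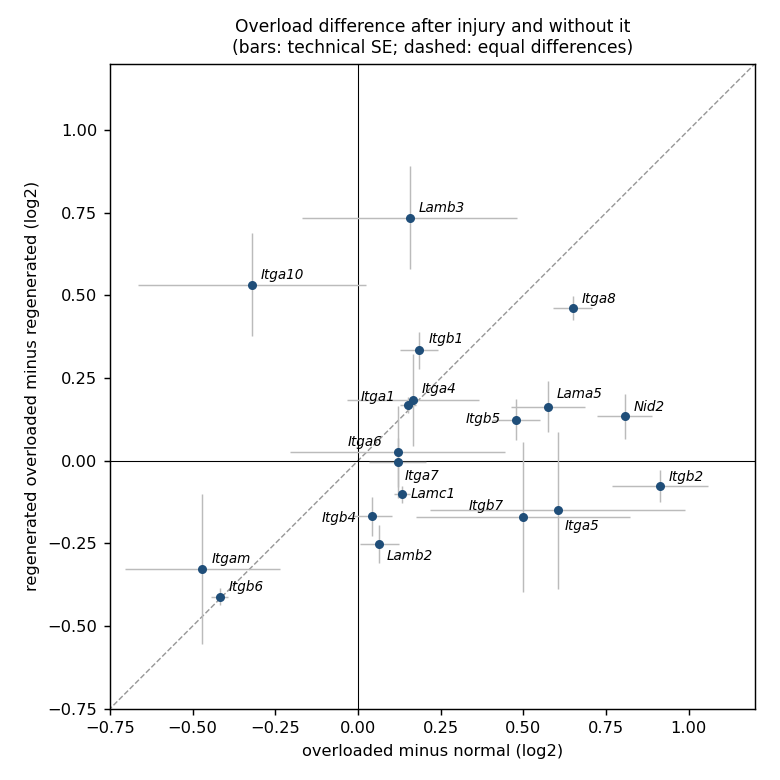
Overload difference after injury (vertical) against that without injury (horizontal), both in log2 with technical SE bars, for the 19 genes above background on every array. Points on the dashed line had equal differences; Itgb6 lies on it near -0.42, Itgb2 lies far below it and Itga10 and Lamb3 above it.

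The 2 overload differences had the same sign in 11 of the 19 genes (57.9%) and in 74.2% of all 14417. Across genes their Pearson correlation was 0.19 over the 19 and 0.65 over all, a description in which the points share the 4 arrays and the slide rows. For Itgb2, Nid2 and Lama5 the arrays of regenerated, overloaded and regenerated overloaded muscle lay close together and the normal array below them, so a step between normal and overloaded muscle was not seen again between regenerated and regenerated overloaded muscle.

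**Figure D4:**
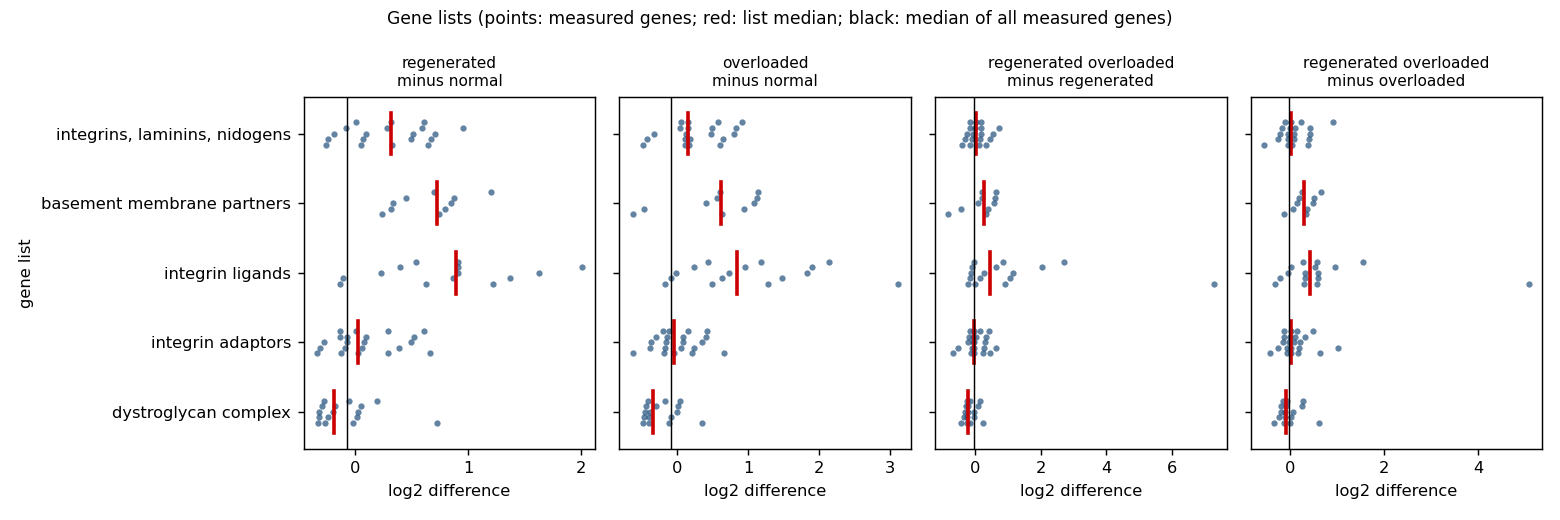
Log2 differences of the measured integrins, laminins and nidogens and of 4 lists of partner genes, with the list median in red and the median of all measured genes in black. The medians of integrin ligands and basement membrane partners lie to the right of the black line in all 4 panels, those of integrin adaptors within about 0.1 of it, and those of the dystroglycan complex to its left.

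The partners of these genes were read from 4 lists. Of 10 measured basement membrane partners, none passed 2-fold between regenerated and normal muscle, and 2 were higher between overloaded and normal muscle, Sparc, a collagen-binding matrix protein (2.19-fold), and Pxdn, the peroxidase that cross-links type IV collagen (2.20-fold). Of all genes, 1.25% and 2.42% were 2-fold or more higher in these 2 comparisons. None of the 10 partners passed 2-fold in the comparisons of regenerated overloaded muscle, against 1.55% and 1.01% of all genes higher. Their medians were 0.72 for regenerated and 0.62 for overloaded over normal muscle, 0.27 for regenerated overloaded over regenerated muscle and 0.29 over overloaded muscle. Col4a1, the collagen chain to which nidogen binds, had 773 in regenerated overloaded, 735 in overloaded and 621 in regenerated muscle, against 382 in normal muscle, the order seen for Nid2.

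Of the integrin ligands, 4 of 14 measured were 2-fold or more higher in regenerated than in normal muscle, against 1.25% of all genes. In overloaded over normal muscle 6 of 16 were, against 2.42% of all genes, and none was lower in either comparison. Fn1, the fibronectin bound by Itga5 and Itga8, was 2.33-fold and 2.43-fold higher, and Postn, Col1a1 and Col3a1 were higher in both. Thbs2 (2.79-fold) and Thbs4 (2.26-fold), matrix thrombospondins, were higher in overloaded muscle. Between regenerated overloaded and regenerated muscle 5 of 16 were higher, Postn, Col1a1, Thbs2, Tnc and Tnn, against 1.55% of all genes. Between regenerated overloaded and overloaded muscle 2 of 16 were, Tnc (2.94-fold) and Tnn (33.9-fold), both tenascins, against 1.01% of all genes. Both were dim in overloaded muscle, at 5.29 and 3.73, and not above background in regenerated or normal muscle. With normexp they were 1.86-fold and 10.7-fold higher than in overloaded muscle, so Tnc fell short of 2-fold. The medians of the integrin ligands were 0.89, 0.85, 0.45 and 0.42, in the order of comparisons given above.

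The lists on the inner side of the membrane held no gene past 2-fold in any comparison, where between 1.69% and 3.15% of all genes passed it. Of the integrin adaptors, 21, 21, 22 and 22 were measured, with medians of 0.023, -0.036, -0.034 and 0.026. The largest differences among them were Tns1, a tensin (1.02 between regenerated overloaded and overloaded muscle on a probe not above background in overloaded muscle), and Flnc, the muscle filamin (-0.67 between regenerated overloaded and regenerated muscle). Of the dystroglycan complex, 16 were measured, with medians of -0.19, -0.34, -0.22 and -0.096. Dag1, the laminin receptor dystroglycan itself, differed by -0.15 to 0.054. Utrn, the dystrophin relative utrophin, had the highest differences, at 0.72 (technical SE 0.29) in regenerated over normal and 0.61 (0.14) in regenerated overloaded over overloaded muscle. Its probe was dim, with a signal of 9.48 in normal muscle. Sgca, a sarcoglycan, was lowest, at -0.48 in overloaded over normal muscle.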

How the data were processed

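Soleus RNA of 4 groups was measured on 4 Agilent one-colour arrays of 1 slide, with RNA of 6 muscles pooled per array, per the labels. The deposited scanner files give each spot's processed signal, median signal and local background as intensity values, background-subtracted but not scaled between arrays, with other values that flag outlying spots and spots well above background, per the file headers. Feature Extraction is given as version 11.5.1.1 in the headers and as 10.10.1.1 in the submitters' processing notes. The authors' deposited series table holds the processed intensity times 1 constant per array (2.02, 1.95, 2.10 and 2.14 for regenerated overloaded, overloaded, regenerated and normal muscle), on a linear scale and not centred. How the constant was chosen is unknown, and the probe positions in the headers are on build rn4.

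Flagged outlier spots (406 to 451 per array) were left out. The log2 processed signal was scaled to each array's 75th percentile and averaged over the spots of each probe. The brightest probe over the 4 arrays stood for its gene. Of 30367 probes, 18643 matched a symbol by RefSeq accession, and the RefSeq table and promoter sequences are of assembly GRCr8. Measured genes were those whose probe was above background on either array compared. Where 1 array alone did, its fold was computed against the lowest signal called above background on the other array, or the probe's own if higher, and given as an at-least fold; medians use the log2 difference itself. Technical SE came from the SD between spots, pooled in 20 bins of signal. No test between groups was possible and no p-value is given. The number of arrays limits the precision. The step from spots to calls was tested on simulated data. The simulation planted only changes larger than 2-fold, in probes above background on every array, and gave all arrays the same sensitivity. It therefore does not bear on the 1.5-fold calls or on dim genes.

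A gene that met the rule and a marker gene are not reported here and enter no count or sum of these genes. The genes, lists and comparisons were chosen with earlier results of these data known. The rule of more than 50% of a probe's spots above background was settled after 50% or more had also been run, because it gave the same counts over all genes as earlier processing of these files; the counts under both are given with the other alternatives. The grouping by role, the motifs, the promoters printed and the count of which array was lowest were chosen after the values were seen. Named by rule were genes past 2-fold, sets of muscle, leukocyte and matrix-receptor chains, and both ends of the difference of overload differences; the other integrins and laminins described were chosen after their values were seen. In partner lists, genes past 2-fold or the 2 largest differences were named by rule, and Col4a1 and Dag1 after their values were seen. Analyses used Python 3.11.15, numpy 2.4.6, pandas 2.3.3, R 4.3.3 and limma 3.58.1 (normexp with offset 50, quantile and cyclic loess normalization).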

Additional observations from a re-analysis of the deposited data

Results flagged for a closer look

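In 8 of the 19 genes above background on every array, the overload difference after injury and that without injury had opposite signs. The signs were the same in 11 of the 19 (57.9%) and in 74.2% of all 14417 genes. Opposite signs therefore occurred among all genes too, though less often. The difference between the overload differences after and without injury was not tested, since each rests on 1 array per group. After injury minus without injury, it was -0.99 on the log2 scale for Itgb2, -0.75 for Itga5, -0.67 for Itgb7, -0.32 for Lamb2, -0.23 for Lamc1, -0.21 for Itgb4 and -0.12 for Itga7, all lower after injury. For Itga10 it was 0.85, higher after injury, and a second probe of this gene gave overload differences of -0.10 after injury and 0.30 without it. For each of these genes the opposite signs rested on a difference within or not far beyond its spot error, or were lost on a second probe. After injury Itgb7 differed by -0.17 (technical SE 0.23) and Itgb2 by -0.076 (0.049). Without injury Lamb2 differed by 0.064 (0.059) and Itga10 by -0.32 (0.34). Itga7 differed after injury by -0.0047 (technical SE 0.075) and was positive in both with the deposited table, and Itgb4 differed without injury by 0.043 (0.059). A second Lamc1 probe gave -0.10 after injury and -0.17 without it, and Itga5 with normexp -0.10 and -0.017, the same sign in each case. The count of genes with opposite signs lay between 7 and 10 under the other ways of processing.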

How the results depend on the processing

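Overload goes with age and slide row, and the normal array had the fewest spots above background, so dim genes compared with normal muscle are the least certain. The number of genes past 2-fold was 0 in each of the 4 comparisons. Between regenerated and normal muscle it was 1 with the 75th percentile taken over probes above background on all arrays, with the deposited series table and without the outer rows and columns (Itgb2 in each), and 1 with the mean over probes (Nid2). Between overloaded and normal muscle it was 1 under the first, second and last of these settings. Between regenerated overloaded and overloaded muscle it was 2 with no filter on dim probes (Itgb3 and Lamc3, above background on no array). Requiring 50% or more of a probe's spots, an alternative added after seeing the data, left these counts at 0. Over all genes it gave 566, 895, 597 and 591 calls in the 4 comparisons, in place of 324, 546, 342 and 295, and among the integrins, laminins and nidogens 6, 5, 1 and 1 past 1.5-fold in place of 6, 4, 1 and 1. With normexp those counts were 0, 1, 0 and 0. The median difference between regenerated and normal muscle, 0.31, was 0.11 with normexp and 0.081 with no filter, and that between overloaded and normal muscle, 0.16, was 0.049 with normexp and 0.33 with the deposited series table, where all genes stood at -0.17 and 0.096. The median difference of overload differences, -0.19, was -0.087 with normexp and -0.32 with the deposited series table, where all genes stood at 0.097 and -0.055. Relative to all genes the medians of both comparisons with normal muscle were positive under every alternative run. The others were not: relative to all genes, regenerated overloaded against regenerated muscle stood at -0.00386 with normexp, and regenerated overloaded against overloaded muscle at -0.00297 with no filter. No paired analysis was possible because each group has 1 array and the labels number no replicates.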

Other observations

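Itgbl1, whose symbol resembles an integrin beta chain but which encodes a secreted protein and fell outside the rule, had 571.5 in regenerated overloaded, 366 in overloaded, 388 in regenerated and 224 in normal muscle on 1 spot per array. It was 1.73-fold higher in regenerated and 1.63-fold higher in overloaded than in normal muscle, and 1.47-fold and 1.56-fold higher in regenerated overloaded than in regenerated and in overloaded muscle.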
